A study of Mus musculus with 25 samples.

Results

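The Jak, Stat and Socs genes examined here were Jak1, Jak2, Jak3, Tyk2, Stat3, Stat4, Stat5b, Socs1, Socs3 and Cish, and the measurement was chromatin accessibility at the ATAC-seq peaks assigned to them. A peak was assigned when its midpoint lay in the body of the gene or when that gene had the nearest start of a protein-coding transcript (GENCODE vM39, GRCm39). By this rule 33 of 13527 peaks belonged to the 10 genes. Stat4 held 9 peaks, Jak1 8, Socs1 4, Stat5b 3, Stat3, Socs3, Cish and Tyk2 2 each, Jak2 1 and Jak3 0. Assignment by position does not show that a peak acts on the gene. Peaks are named by gene and by the distance in bp from the start of the gene to the midpoint of the peak, counted in the direction of transcription. Of the 33 peaks, 6 were promoter peaks, that is, within 1000 bp of a transcript start, which is 18.2% against 56.7% of all peaks. Their median length was 943 bp, against 963 bp for all peaks.

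Cytokines that bind receptors without a kinase of their own signal through Janus kinases (Jak1, Jak2, Jak3 and Tyk2), which phosphorylate STAT proteins. The STATs then enter the nucleus and bind DNA, and among the genes they induce are Socs1, Socs3 and Cish, whose products damp the same pathway. In CD8+ T cells, IL-2, IL-7 and IL-15 act mainly through Jak1, Jak3 and Stat5, IL-12 through Jak2, Tyk2 and Stat4, and IL-6 and IL-21 mainly through Stat3.

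The cells were CD8+ T cells from spleen and lymph nodes of adult female C57BL/6 mice, sorted with a tetramer for a peptide of OVA, a transgenic antigen that the paternal 2W-OVA.BALB/c strain expresses constitutively (fetus/graft-specific T cells, TFGS). Naive females had neither graft nor mating (3 libraries), and the unmated Sensitized group had earlier rejected skin from a paternal donor (4 libraries). N+P females were mated to paternal males without a graft, and S+P females after graft rejection, and their TFGS were sorted post partum by PD1, an inhibitory receptor, and CD73, an ectoenzyme. N+P C1 (3 libraries) and S+P C4 (4 libraries) were PD1-, N+P C5 (3) and S+P C5 (4) were PD1+CD73+, and S+P C7 (4) was PD1+CD73-. OVA-specific cells stand for the whole response to the graft or fetus, and PD1 and CD73 define the subsets, so they are not outcomes. Cells were prepared from individual mice by the study's methods, but the labels number the libraries without naming animals, so the p-values measure the spread between these libraries.

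Counts in peaks ranged from 2430890 to 25419715 per library. By correlation of log2 normalized counts across all peaks, Sensitized libraries 3 and 4 were closest to the N+P C5 mean (r = 0.973 and 0.955) and Naive library 3 to the N+P C1 mean (0.988). Whether the label or the sort of those Sensitized libraries is right was not tested. Sensitized library 1 was closest to S+P C4 (0.931) and S+P C4 library 1 to N+P C5 (0.923). By smaller margins, S+P C4 library 3 was closer to S+P C7 (0.938) than to its own group (0.937), S+P C7 library 1 to S+P C5 (0.959 against 0.954), N+P C1 libraries 1 and 3 to N+P C5 (0.982 against 0.981 and 0.979 against 0.978) and N+P C5 library 1 to N+P C1 (0.985 against 0.984). Of the CD8 T cell markers Cd8a, Cd8b1, Cd3d, Cd3e, Cd3g, Cd2 and Lck, 6 had a promoter peak and Cd2 had none, and the summed normalized count of the 21 peaks ranged from 7199 to 12100 over all libraries, with 7896 to 9906 in Naive, 7469 to 10970 in Sensitized, 7510 to 7929 in N+P C5 and, without overlap with the latter, 9114 to 11270 in S+P C5. No peak was nearest to any of 6 B cell, 5 myeloid or 3 erythroid markers. Of 3 CD4 T cell markers, Cd4 and Zbtb7b had no peak, and the 2 peaks of Foxp3 summed to 448 to 517 in Naive, 236 to 510 in Sensitized and 279 to 456 in S+P C5. The Foxp3 sums of N+P C1 (508 to 633) and N+P C5 (479 to 516) lay above S+P C5 without overlap. Of 2 NK markers, 1 had peaks, none at its promoter, and these 7 peaks summed to 4029 to 4719 in Naive, 4074 to 4202 in Sensitized and 3810 to 4528 in S+P C5. Sums above S+P C5 without overlap were found in N+P C1 (4747 to 5234), N+P C5 (4707 to 5238) and S+P C7 (4739 to 5322), and these 3 groups and S+P C4 (4413 to 4880) were all above Sensitized. What part such cells had in the results below was not tested. In sorted bulk cells, more cells with an open site and a more open site per cell cannot be told apart.

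Among the members, 5 peaks carried most of the calls, and the 300 bp around their midpoints are shown for that reason, from GRCm39 on the plus strand. Capitals mark matches, on either strand, to TTCNNNGAA (STAT), TGANTCA (AP-1), TGGAAA (NFAT) and TGTGGT (RUNX). The windows lie at chr19:29248518-29248817 (intron of Jak2), chr11:100824860-100825159 (intron of Stat3), chr1:52079637-52079936 and chr1:52091939-52092238 (introns of Stat4) and chr16:10486874-10487173 (intron of Clec16a, with Socs1 as the nearest start).
Jak2 +19991: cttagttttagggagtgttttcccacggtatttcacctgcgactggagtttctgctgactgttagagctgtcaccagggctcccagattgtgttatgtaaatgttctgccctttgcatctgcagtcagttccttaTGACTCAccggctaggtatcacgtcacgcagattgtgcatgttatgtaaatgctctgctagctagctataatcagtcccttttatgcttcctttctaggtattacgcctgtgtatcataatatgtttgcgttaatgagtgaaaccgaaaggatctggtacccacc
Stat3 +5440: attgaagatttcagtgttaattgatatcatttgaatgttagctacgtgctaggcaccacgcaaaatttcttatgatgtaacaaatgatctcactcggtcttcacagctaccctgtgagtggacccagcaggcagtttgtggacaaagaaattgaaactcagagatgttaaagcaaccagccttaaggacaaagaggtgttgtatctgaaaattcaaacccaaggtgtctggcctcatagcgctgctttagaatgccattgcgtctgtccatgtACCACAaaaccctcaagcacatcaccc
Stat4 +53480: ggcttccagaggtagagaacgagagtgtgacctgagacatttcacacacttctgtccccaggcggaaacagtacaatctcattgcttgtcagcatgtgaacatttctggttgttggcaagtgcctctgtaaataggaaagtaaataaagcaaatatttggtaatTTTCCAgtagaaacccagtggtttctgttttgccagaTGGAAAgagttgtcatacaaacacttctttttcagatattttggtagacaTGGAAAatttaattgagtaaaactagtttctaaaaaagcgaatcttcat
Stat4 +65782: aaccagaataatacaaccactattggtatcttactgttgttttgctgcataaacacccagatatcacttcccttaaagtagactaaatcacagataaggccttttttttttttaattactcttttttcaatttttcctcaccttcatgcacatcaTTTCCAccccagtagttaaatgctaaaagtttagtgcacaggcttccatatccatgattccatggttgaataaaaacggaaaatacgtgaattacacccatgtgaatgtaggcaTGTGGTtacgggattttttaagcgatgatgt
Socs1 +116851: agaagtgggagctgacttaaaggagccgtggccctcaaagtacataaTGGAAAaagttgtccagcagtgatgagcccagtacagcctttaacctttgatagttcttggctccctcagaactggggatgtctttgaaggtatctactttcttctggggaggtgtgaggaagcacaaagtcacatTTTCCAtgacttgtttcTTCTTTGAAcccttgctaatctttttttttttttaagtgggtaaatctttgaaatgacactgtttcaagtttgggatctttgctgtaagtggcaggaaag
The Jak2 window held 1 AP-1 string, 15 bp before the midpoint. The Stat4 window at +53480 held 3 NFAT strings, and that at +65782 held 1 NFAT and 1 RUNX string. The distal Socs1 window held 1 STAT string and 2 NFAT strings, and its STAT string overlaps a match to CTTTGA (TCF/LEF). Of the 4 marked strings, the Stat3 window held 1 RUNX match alone.

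To ask where graft rejection and pregnancy altered these peaks, 10 comparisons were read from 1 DESeq2 fit over all peaks. Calls required an adjusted p below 0.1 together with a log2 fold change beyond 0.9 in either direction, and a called peak is described as opening when the group named first was higher and closing when it was lower. After graft rejection alone, in Sensitized vs Naive, 5 members opened and 2 closed, where 7.22% of all peaks opened and 1.4% closed. Between the C5 subsets, S+P vs N+P, 7 opened and 0 closed (all peaks 10.3% and 6.97%), with 20 members under the adjusted p alone, 12 higher and 8 lower, where 63.8% of all peaks passed it, so that this count is no more than the background. In S+P C5 vs Sensitized, 4 opened and 0 closed (3.08% and 3.67%), and in S+P C7 vs Sensitized, 2 opened and 0 closed (3.84% and 8.03%).

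In S+P C4 vs Sensitized 1 member opened and 0 closed (all peaks 0.562% and 0.296%). In S+P C5 vs S+P C4, 3 opened and 0 closed (3.12% and 2%), and in S+P C7 vs S+P C5, 0 opened and 1 closed (0.266% and 2.11%). The difference of the C5 effects, S+P C5 vs Sensitized minus N+P C5 vs Naive, was called as positive in 3 members and as negative in 0 (3.04% and 2.93%). In mice without a graft DESeq2 called 0 members in N+P C1 vs Naive, where 0% of tested peaks opened and 0.0205% closed, and 0 members in N+P C5 vs Naive, where 0.0262% opened and 0% closed. At an unadjusted p under 0.05 there were 9 and 7 members, and edgeR also called 0 in each. For these comparisons the tool's filter on low counts left 12 and 6 members with an adjusted p. Medians over the 33 peaks stayed between −0.22 (N+P C1 vs Naive) and 0.12 (S+P C5 over N+P C5) on the log2 scale, beside −0.02 and 0.00 over all peaks. Altogether 9 distinct members carried every call, and 4 of them lie within 1 gene. The opening share of the members was above that of all peaks in every comparison with an opening member. The closing share was above it in Sensitized vs Naive and S+P C7 vs S+P C5 alone, and neither was tested. Promoter peaks, of which at most 3.36% were called in any comparison, were 18.2% of the members and 56.7% of all peaks. These shares therefore compare unlike mixes of peaks, and they show no excess over peaks of the same class. The 3 S+P subsets vs Sensitized, Sensitized vs Naive and the difference of the C5 effects all share the 4 Sensitized libraries, and the last 2 and both N+P comparisons share Naive. The labels give no PD1 or CD73 gate for Naive and Sensitized, so in comparisons with these groups the sorted subset and pregnancy cannot be told apart.

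**Figure D1:**
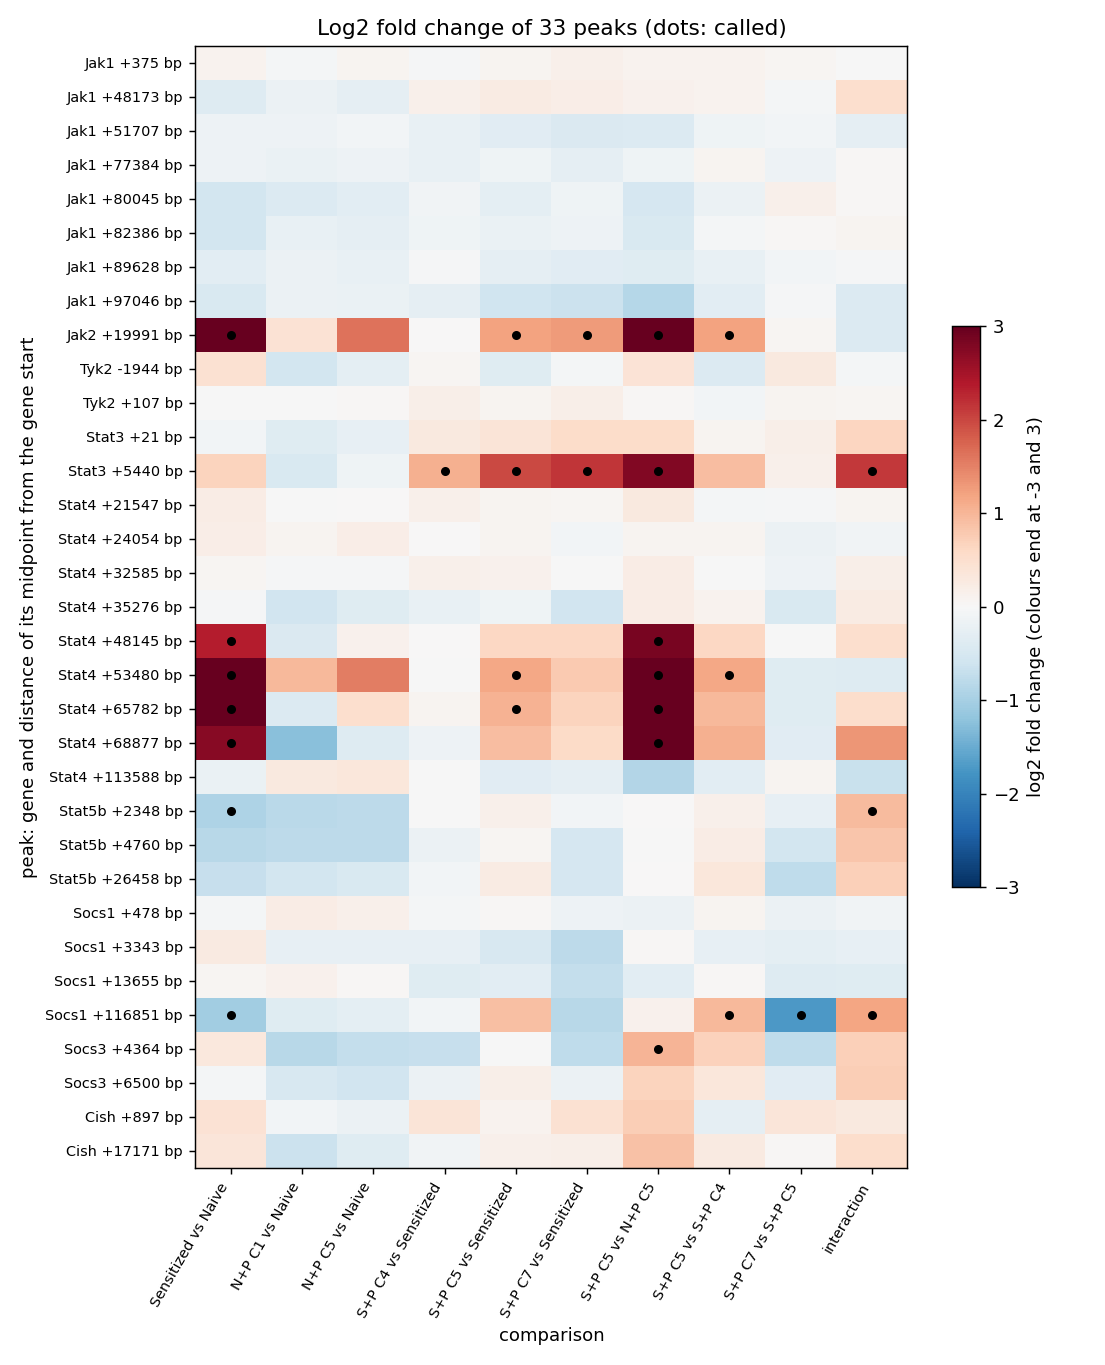
Log2 fold changes of the 33 peaks (rows, by gene and distance from the gene start) in the 10 comparisons (columns). Red is higher in the group named first, blue is lower, and a dot marks a called peak; dots fall on 9 rows, none of them a promoter peak.

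The promoter peaks differed little. Over the 6 promoter peaks and 10 comparisons, log2 fold changes lay between −0.37 and 0.74, 12 of 60 values passed the adjusted p and 0 passed the fold threshold, where among all 7670 promoter peaks between 0% and 3.36% were called per comparison. The Jak1 promoter peak (chr4:101121510-101122714, over a UTR) held 601 to 696 normalized counts in Naive and 651 to 802 in S+P C5, and its log2 fold change of S+P C5 over N+P C5 was 0.10 ± 0.11 (SE). The Tyk2 promoter peak (chr9:21042111-21043053) held 562 to 595 in Naive and 564 to 656 in S+P C5 (0.04 ± 0.09 in the same comparison).

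Among the kinases, Jak2 showed the largest difference. Jak2 transmits signals of the IL-12 and interferon-γ receptors. Its only assigned peak (+19991, chr19:29248345-29248991) lay in an intron and was present in the deposited lists of S+P C5 and S+P C7 alone. These lists differ in size, from 27.0% of all peaks (S+P C4) to 82.9% (S+P C5, with 30 of the 33 members), so presence in a list is no measure of level. Normalized counts were 16.5, 15.7 and 22.1 in Naive, 19.9, 41.5 and 11.3 in N+P C1, and 42.3, 71.3 and 57.7 in N+P C5. Sensitized libraries had 343, 290, 104 and 138, and S+P C4 libraries 68.1, 202, 318 and 279. For S+P C5 the values were 493, 617, 513 and 410, against 599, 577, 524 and 425 for S+P C7. The S+P C5 and S+P C7 libraries were above every other library, while those of Sensitized and S+P C4 overlapped.

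The Jak2 peak was 11.9-fold higher in Sensitized than in Naive (log2 3.57 ± 0.44, DESeq2 adjusted p 7.9e-14) and 8.93-fold higher in S+P C5 than in N+P C5 (3.16 ± 0.41, adjusted p 9.83e-13). S+P C5 was 2.33-fold above Sensitized (1.22 ± 0.37, adjusted p 0.00866) and S+P C7 2.43-fold above it (1.28 ± 0.37, adjusted p 0.00228). S+P C4 and Sensitized differed by 0.01 ± 0.37, and S+P C7 and S+P C5 by 0.06 ± 0.37. Sensitized libraries 3 and 4 were the low ones, and without both of them S+P C5 vs Sensitized was 0.68 ± 0.36 (adjusted p 0.266) and S+P C7 vs Sensitized 0.75 ± 0.36 (adjusted p 0.127), so neither was called. Sensitized vs Naive was then 4.10 ± 0.42, and with loess offsets 2.94. With these offsets, which remove a trend of the fold change with count level, the comparisons of S+P C5 and S+P C7 with Sensitized gave 0.78 and 0.80 and were not called, whereas the contrast of the C5 subsets gave 2.00 and was. In N+P C5, the 3 libraries lay above the 3 Naive libraries (log2 1.63 ± 0.48), with no adjusted p in the fit over all groups. Without the filter on low counts the adjusted p was 0.0766, and in a fit of those 2 groups alone it was 0.0102.

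**Figure D2:**
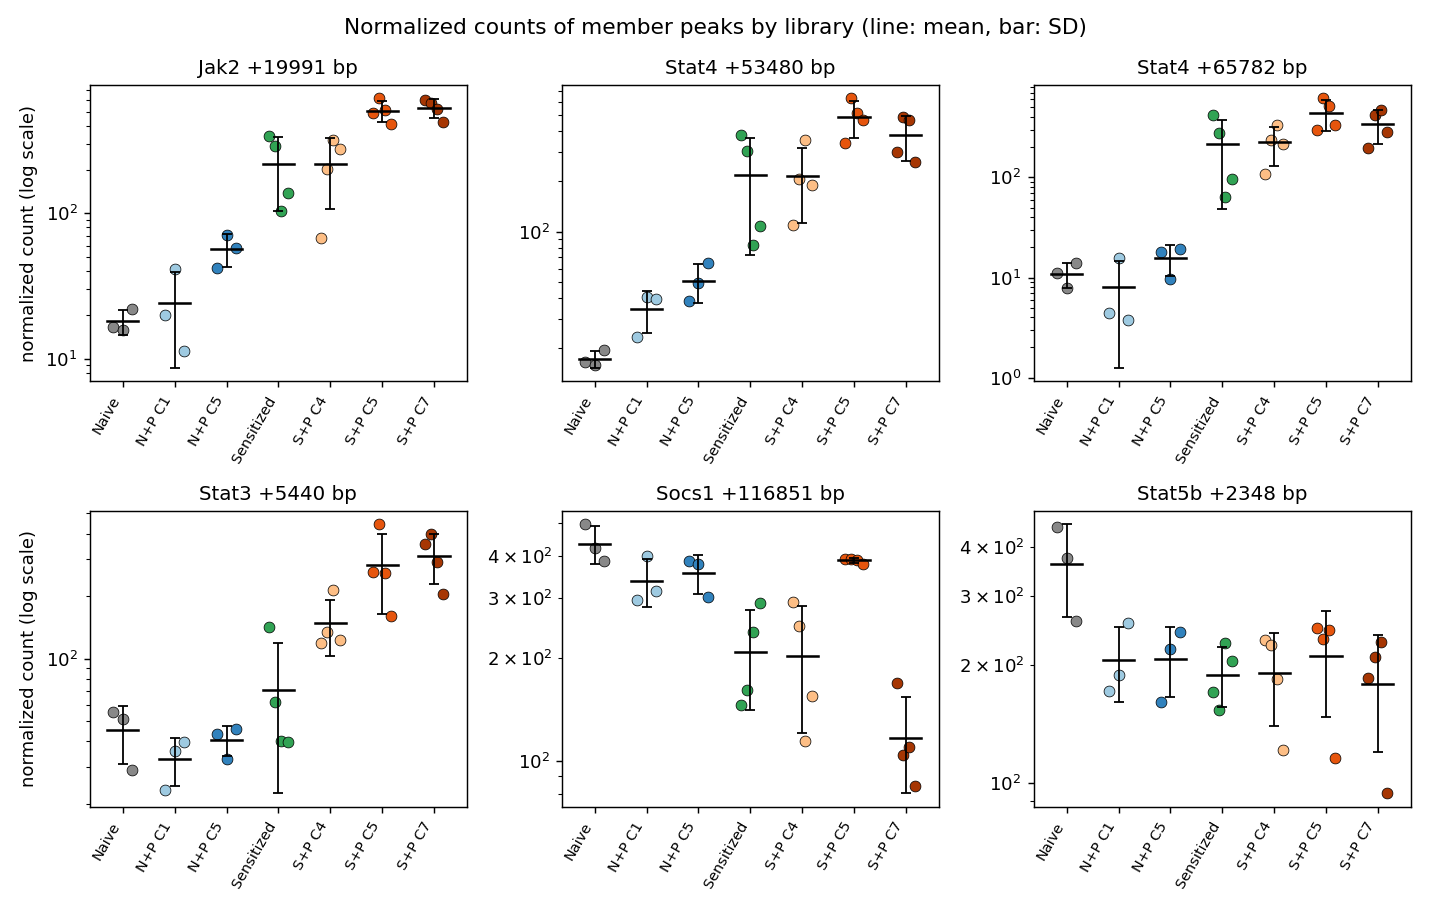
Normalized count (log axis) of 6 peaks in each library, by group. Points are libraries, lines are means and bars are SD. Both Stat4 peaks separate the 3 groups without a graft from the 4 groups with one, Jak2 does so except for an S+P C4 library (68.1) below an N+P C5 library (71.3), Stat3 is high in S+P subsets, and the distal Socs1 peak is lowest in S+P C7.

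Jak1, the kinase paired with most cytokine receptors of T cells, had 7 intron peaks besides its promoter, and all 7 had slightly lower values in each of the 3 groups compared with Naive. In Sensitized vs Naive all 7 had lower values, from −0.55 to −0.14 on the log2 scale, and 5 fell at an adjusted p under 0.1, where 20.5% of all peaks passed in either direction. All 7 were also lower without a graft, in N+P C1 vs Naive (−0.41 to −0.16) and N+P C5 vs Naive (−0.31 to −0.07). The filter on low counts left most of these peaks without an adjusted p there. The peaks at +77384 and +89628 kept one in both comparisons, and +97046 kept one in the former alone. None of those values passed. Between the C5 subsets 6 of 7 were lower in S+P than in N+P, 5 of them past the adjusted p, with a range of −0.85 to 0.14, beside the 63.8% of all peaks that passed. None passed the fold threshold in the fit over all libraries. The peak farthest from the start (+97046, chr4:101024885-101025998) had 996, 969 and 914 counts in Naive and 741, 803 and 952 in N+P C5. Sensitized libraries had 573, 665, 795 and 769, S+P C5 libraries 568, 323, 506 and 432, and S+P C7 libraries 512, 402, 431 and 441. S+P C5 and S+P C7 lay below all libraries of the other groups, except that S+P C5 overlapped with S+P C4 (534 to 666). From N+P C5 to S+P C5 it fell by 0.85 ± 0.16 (adjusted p 2.12e-06), and it was called without N+P C5 library 1 (−0.93) or S+P C5 library 1 (−0.97). From Sensitized it fell by 0.60 ± 0.15 to S+P C5 (adjusted p 0.00117) and by 0.65 ± 0.15 to S+P C7 (adjusted p 0.000175). Without Sensitized libraries 3 and 4 these values were −0.42 ± 0.18 (adjusted p 0.137) and −0.47 ± 0.18 (adjusted p 0.0501), so that only the latter passed.

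**Figure D3:**
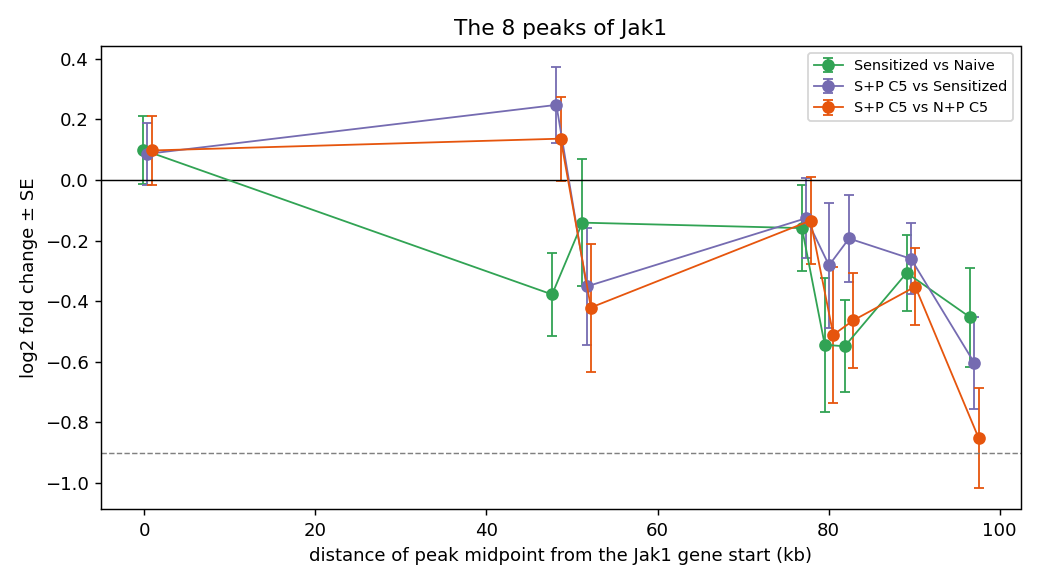
Log2 fold change ± SE of the 8 Jak1 peaks against their distance from the gene start, for 3 comparisons; the dashed line is the fold threshold of −0.9. The promoter peak is near 0 and the peak at 97.0 kb is the lowest in the contrast of the C5 subsets, at −0.85.

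Tyk2, the partner of Jak1 or Jak2 at interferon and IL-12 receptors, had a second peak 1944 bp upstream of its start, in an exon of Cdc37 (chr9:21044343-21044923). Counts were 291, 294 and 237 in Naive and 553, 406, 273 and 279 in Sensitized. N+P C5 libraries had 224, 210 and 234, and S+P C5 libraries 280, 295, 290 and 313. Sensitized overlapped with Naive, whereas S+P C5 was above N+P C5 in all libraries, but no comparison passed (0.40 ± 0.24 for the latter, adjusted p 0.131). With Sensitized libraries 3 and 4 left out, the adjusted p passed in Sensitized vs Naive (0.81 ± 0.23, adjusted p 0.00215) and in S+P C5 vs Sensitized (−0.70 ± 0.21, adjusted p 0.0192), both below the fold threshold. Jak3, which pairs with the common cytokine receptor γ chain, had no peak by the rule.

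Stat4, the STAT activated by IL-12, held a run of 4 intron peaks that were low in every group without a graft and open in every group with one. They lay at +48145, +53480, +65782 and +68877, between chr1:52073857 and chr1:52095566. The peak at +53480 (chr1:52079329-52080245) had 16.5, 15.7 and 19.6 counts in Naive, 23.2, 40.4 and 39.6 in N+P C1, and 38.2, 49.3 and 64.9 in N+P C5. Sensitized libraries had 380, 306, 83.1 and 107, and S+P C4 libraries 109, 208, 355 and 190. S+P C5 libraries had 338, 629, 513 and 464, and S+P C7 libraries 300.2, 484, 464 and 260.0. All libraries of sensitized mice were above all libraries of mice without a graft, and S+P C5 overlapped with Sensitized.

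The peak at +65782 (chr1:52091577-52092602) had the widest contrast of any member. Its counts were 11.02, 7.87 and 13.9 in Naive, 4.42, 15.7 and 3.77 in N+P C1, and 18.1, 9.59 and 19.2 in N+P C5. Sensitized libraries had 415, 279, 63.1 and 95.5, and S+P C4 libraries 109, 235, 337 and 217. S+P C5 libraries had 295, 615, 519 and 331, and S+P C7 libraries 197, 417, 471 and 282. Again the groups with and without a graft did not overlap, and Sensitized spanned the range from below S+P C4 to the level of S+P C5. It was 19.3-fold higher in Sensitized than in Naive (log2 4.27 ± 0.56, adjusted p 2.33e-12) and 27.9-fold higher in S+P C5 than in N+P C5 (4.80 ± 0.55, adjusted p 3.04e-16). With loess offsets the values were 2.92 and 2.69, both still calls, and without Sensitized libraries 3 and 4 the former was 4.96 ± 0.49.

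The other peaks of the run were also higher in groups with a graft. At +53480 the log2 fold change was 3.65 ± 0.46 in Sensitized vs Naive (adjusted p 3.85e-13) and 3.26 ± 0.44 between the C5 subsets (adjusted p 3.48e-12), against 2.94 and 2.02 with loess offsets. In the same comparisons it was 2.35 ± 0.39 and 2.85 ± 0.39 at +48145, and 2.74 ± 0.55 and 4.06 ± 0.57 at +68877. With loess offsets these 4 values remained calls, at 2.35 and 2.76 (+48145) and 1.47 and 1.98 (+68877). When Sensitized libraries 3 and 4 were left out, Sensitized vs Naive was 4.29 ± 0.41 at +53480, 2.90 ± 0.37 at +48145 and 3.396 ± 0.52 at +68877. At +68877 a library of N+P C1 had 0 counts, where up to 3 counts (5.65 normalized) cannot be told from 0. In N+P C5 vs Naive the peak at +53480 had a log2 fold change of 1.55 ± 0.50 with no adjusted p in the fit over all groups, and an adjusted p of 0.0185 in a fit of those groups alone, while the other 3 lay between −0.39 and 0.51.

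Against Sensitized, S+P C5 was called at +53480 (1.15 ± 0.39, adjusted p 0.0201) and at +65782 (1.04 ± 0.47, adjusted p 0.0829), and not at +48145 (0.62 ± 0.35, adjusted p 0.177) or +68877 (0.93 ± 0.49, adjusted p 0.149). These calls rested on Sensitized libraries 3 and 4. Without both, the values were 0.50 ± 0.34 (adjusted p 0.433) and 0.34 ± 0.41 (adjusted p 0.709), and leaving out either 3 or 4 alone also ended both calls (0.74 to 0.92). The call at +65782 was also lost without S+P C5 library 2 (0.84) or 3 (0.95), and both were lost with loess offsets (0.70 and 0.25). In all it was lost in 10 of 17 alternatives, which include an adjusted p under 0.05, total counts and the compared groups alone with or without the replicate block. Without Sensitized library 1, all 4 peaks of the run were called, from 1.01 to 1.59. In S+P C7 vs Sensitized the 4 values were 0.58 to 0.78, with an adjusted p under 0.1 at +53480 alone (0.0883), and without Sensitized library 1 all 4 were called (1.01 to 1.23). With Sensitized libraries 3 and 4 left out they lay between −0.07 and 0.13, and none passed the adjusted p (0.833 at +53480). S+P C4 differed from Sensitized by −0.15 to 0.08 over the 4 peaks, none past the adjusted p.

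The remaining 5 Stat4 peaks did not open with this run. The promoter peak of the internal start (+21547, chr1:52047056-52048652) held 572 to 638 in Naive and 710 to 796 in S+P C5. The peaks at +24054, +32585 and +35276 had means between 204 and 718 in every group. The last intron peak (+113588) had means of 334 in Naive, 420 in N+P C5 and, at 228, its lowest in S+P C5, and was lower in S+P C5 than in N+P C5 by the adjusted p (−0.88 ± 0.35, adjusted p 0.0246), just under the fold threshold. It was called with loess offsets (−1.002), without N+P C5 library 1 (−0.96) or 2 (−0.93) and without S+P C5 library 1 (−1.17). Without Sensitized libraries 3 and 4 it was also called as lower in Sensitized than in Naive (−1.04 ± 0.34, adjusted p 0.0102), against −0.20 ± 0.35 with them.

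**Figure D4:**
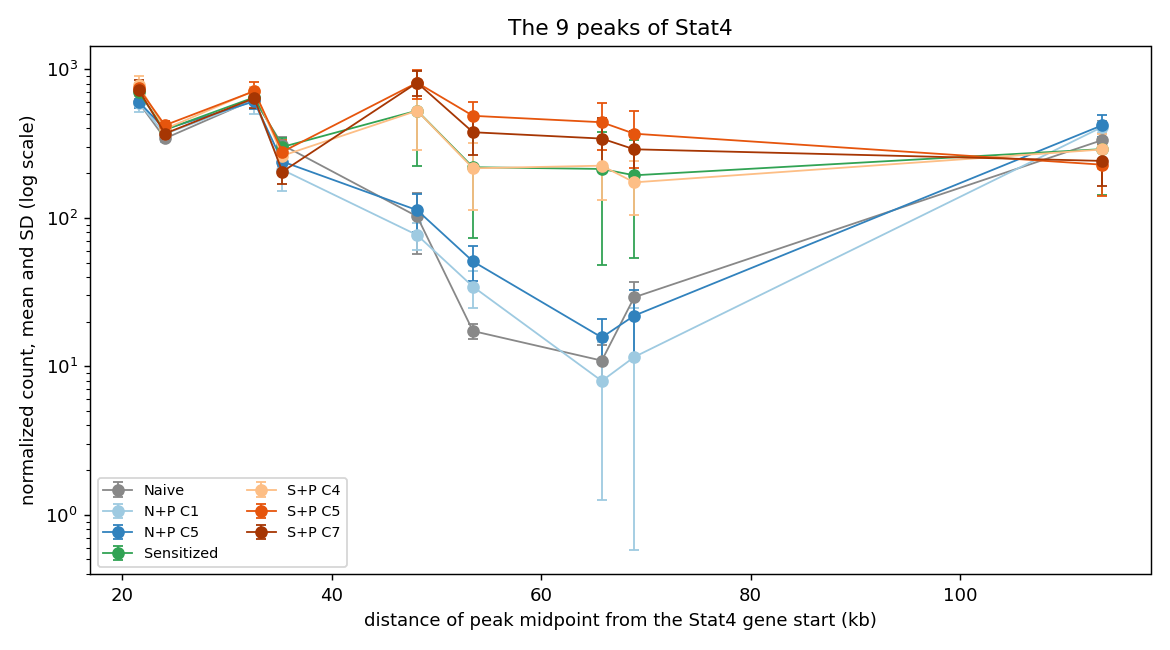
Mean normalized count (log axis) with SD of the 9 Stat4 peaks, by distance from the gene start, for the 7 groups; a whisker that would pass 0 is shortened to stay on the axis. Between 48.1 and 68.9 kb the 3 groups without a graft drop to means of 7.96 to 113 while the 4 groups with a graft stay between 173 and 812.

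Stat3, the STAT of IL-6, IL-10 and IL-21, had the member peak with the highest fold change of S+P C5 and S+P C7 over Sensitized. It lay in an intron (+5440, chr11:100824697-100825323) and was in the deposited list of S+P C5 alone, although its mean was higher in S+P C7 (313) than in S+P C5 (281). Counts were 55.1, 51.1 and 29.0 in Naive, 23.2, 35.9 and 39.6 in N+P C1, and 43.3, 32.9 and 45.7 in N+P C5. Sensitized libraries had 142, 62.0, 40.1 and 39.6, and S+P C4 libraries 119, 135, 214 and 123. S+P C5 libraries had 262, 444, 258 and 161, and S+P C7 libraries 358, 397, 292 and 205. Sensitized overlapped with Naive and, through library 1, with S+P C4, and all S+P C5 and C7 libraries were above all Sensitized libraries.

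This Stat3 peak was 3.95-fold higher in S+P C5 than in Sensitized (log2 1.98 ± 0.37, adjusted p 4.65e-06), 4.41-fold higher in S+P C7 (2.14 ± 0.37, adjusted p 2e-07) and 6.89-fold higher in S+P C5 than in N+P C5 (2.78 ± 0.42, adjusted p 6.01e-10). In Sensitized vs Naive it was 0.67 ± 0.42 (adjusted p 0.304), and in N+P C5 vs Naive −0.13 ± 0.46. The difference of the C5 effects was 2.11 ± 0.59 (adjusted p 0.00901). With loess offsets these comparisons remained called, at 1.25 (S+P C5 over Sensitized), 1.36 (S+P C7 over Sensitized), 0.99 (S+P C5 over N+P C5) and 1.35 (the difference). Without Sensitized libraries 3 and 4, S+P C5 vs Sensitized remained called (1.45 ± 0.39, adjusted p 0.00497), S+P C7 vs Sensitized too (1.61 ± 0.39, adjusted p 0.000647), and Sensitized vs Naive became a call (1.202 ± 0.43, adjusted p 0.0199). S+P C4 vs Sensitized (1.06 ± 0.38, adjusted p 0.0851) was not called without those libraries (0.53 ± 0.39, adjusted p 0.563), nor with edgeR, nor without any 1 of Sensitized libraries 2, 3 and 4 and S+P C4 libraries 2, 3 and 4 (0.83 to 1.15), and was 1.66 without Sensitized library 1. The Stat3 promoter peak (+21, chr11:100829756-100831103) had means of 1019 ± 138 (SD, n = 3) in Naive, 854 ± 59.9 in N+P C5, 954 ± 189 (n = 4) in Sensitized, 1249 ± 180 in the C5 subset of S+P and 1398 ± 164 in its C7 subset. Against Sensitized it rose by 0.39 ± 0.13 to S+P C5 (adjusted p 0.0183) and by 0.55 ± 0.13 to S+P C7 (adjusted p 0.000155), below the fold threshold. Without Sensitized libraries 3 and 4 the former no longer passed the adjusted p (0.21 ± 0.14, adjusted p 0.452), and the latter did (0.37 ± 0.15, adjusted p 0.0544).

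The 3 peaks of other genes whose log2 normalized counts were most like the Stat3 intron peak over the 25 libraries were an intergenic peak nearest to Adgrl2 (chr3:149044310-149045356, r = 0.969), an intergenic peak nearest to Spdye4c (chr2:128218942-128220191, r = 0.968) and the promoter peak of Tnfrsf9 (chr4:150998007-151000313, r = 0.961), which encodes the costimulatory receptor 4-1BB. The libraries are grouped, so these values include differences between groups, whose share was not measured. The 5 members that opened in Sensitized vs Naive, the Jak2 peak and the run of 4 in Stat4, correlated with each other at r = 0.841 to 0.969 over 10 pairs and the same libraries, which differ in group and depth.

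Stat5b, the STAT of IL-2, IL-7 and IL-15, had 3 intron peaks that were highest in Naive. The peak at +2348 (chr11:100738927-100739555) was in the deposited list of Naive alone. It had 449, 376 and 259 counts in Naive, 171, 188 and 256 in N+P C1, and 161, 219 and 243 in N+P C5. Sensitized libraries had 170, 154, 227 and 205, S+P C4 libraries 231, 225, 184 and 121, S+P C5 libraries 248, 233, 246 and 116, and S+P C7 libraries 185, 209, 229 and 94.1. Every Naive library was above every library of the other 6 groups, with Naive library 3 the lowest of the 3.

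It fell by 0.93 ± 0.30 in Sensitized vs Naive (adjusted p 0.017), a call lost without Naive library 1 (−0.74) or 2 (−0.90) or Sensitized library 1 (−0.88) or 2 (−0.85), and the other 2 Stat5b peaks fell by 0.84 ± 0.31 (+4760, adjusted p 0.0461) and 0.70 ± 0.17 (+26458, adjusted p 0.000767) without reaching the fold threshold. In N+P C5 vs Naive the 3 values were −0.80, −0.77 and −0.46, with no adjusted p. Without Naive library 3 the first of these was −0.99 ± 0.35 (adjusted p 0.0367) and was called, as was +4760 (−0.97, adjusted p 0.0467). That library was the lowest Naive one at both peaks, so leaving it out enlarges these falls. The difference of the C5 effects at +2348 was 0.95 ± 0.43 (adjusted p 0.0909). That call was lost in 15 of 23 alternatives, edgeR and 10 single libraries left out among them, with values of 0.69 to 1.18 over all 23. At +26458, S+P C7 was lower than S+P C5 (−0.77 ± 0.16, adjusted p 0.000355), with 226 to 339 counts in S+P C7 and 400 to 558 in S+P C5 and no overlap.

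Among the inhibitors, the distal Socs1 peak set the C5 subset of S+P mice apart from C4 and C7, which overlapped. Socs1 blocks the kinases downstream of interferon and IL-2 family receptors. The peak (+116851, chr16:10486679-10487370) lay in an intron of Clec16a. Counts were 495, 420 and 386 in Naive, 296, 399 and 315 in N+P C1, and 386, 378 and 302 in N+P C5. Sensitized libraries had 146, 161, 238 and 290, and S+P C4 libraries 293, 248, 115 and 155. S+P C5 libraries had 391, 392, 389 and 378, and S+P C7 libraries 169, 104, 109 and 84.5. S+P C5 lay within the range of the groups without a graft and above all libraries of Sensitized, S+P C4 and S+P C7.

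The peak fell by 1.05 ± 0.27 in Sensitized vs Naive (adjusted p 0.00121). S+P C5 was 1.86-fold above Sensitized (0.89 ± 0.25, adjusted p 0.00387), just under the fold threshold, and without Sensitized libraries 3 and 4 it was called (1.34 ± 0.27, adjusted p 5.74e-05), as in 5 other alternatives (0.91 to 1.09). S+P C5 was higher than S+P C4 (0.96 ± 0.25, adjusted p 0.00327), below the fold threshold without S+P C4 library 3 (0.77) or 4 (0.85), and S+P C7 was 3.31-fold lower than S+P C5 (−1.73 ± 0.26, adjusted p 2.69e-08). The difference of the C5 effects was 1.18 ± 0.38 (adjusted p 0.0212). S+P C7 was also lower than Sensitized (−0.84 ± 0.26, adjusted p 0.0044), below the fold threshold. It was called with loess offsets (−0.91) and without Sensitized library 1 (−0.97) or 2 (−0.94) or S+P C7 library 1 (−1.08), and did not pass the adjusted p without Sensitized libraries 3 and 4 (−0.39 ± 0.28, adjusted p 0.345).

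Libraries of S+P subsets with the same number deviated together from their group means (r = 0.522 to 0.771 for C5 and C7, 0.103 to 0.572 for C4 and C5), so the same comparisons were read with the number as a block. This correlation alone does not show that same-numbered libraries share a mouse. Within each number the distal Socs1 peak was higher in C5 than in C7, by 2.31-, 3.77-, 3.56- and 4.48-fold, and higher in C5 than in C4, by 1.34-, 1.58-, 3.397- and 2.44-fold. With the block, S+P C7 vs S+P C5 was −1.76 ± 0.17 (adjusted p 7.34e-22) and again the only member called. In S+P C5 vs S+P C4 the fit over all groups called 3 members, a fit of these 2 groups alone called 6, and the same fit with the block called 5: the distal Socs1 peak (1.03 ± 0.22), the Jak2 peak (1.38 ± 0.48) and the Stat4 peaks at +53480 (1.24 ± 0.20), +65782 (0.98 ± 0.19) and +68877 (1.07 ± 0.21), with adjusted p from 2.16e-08 to 0.0301. In the fit over all groups the 3 calls were the first 2 and the Stat4 peak at +53480 (1.16 ± 0.39, adjusted p 0.034), which was lost without S+P C4 library 1 (0.96) or S+P C5 library 2 (1.01). With loess offsets the distal Socs1 peak alone was called, and the Jak2 and Stat4 values were 0.74 and 0.67. By number, the Jak2 peak was higher in C5 than in C4 by 7.245-, 3.046-, 1.611- and 1.469-fold. Number 1 joined the libraries with the fewest and the most counts, S+P C4 library 1 (2430890) and S+P C5 library 1 (25419715).

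**Figure D5:**
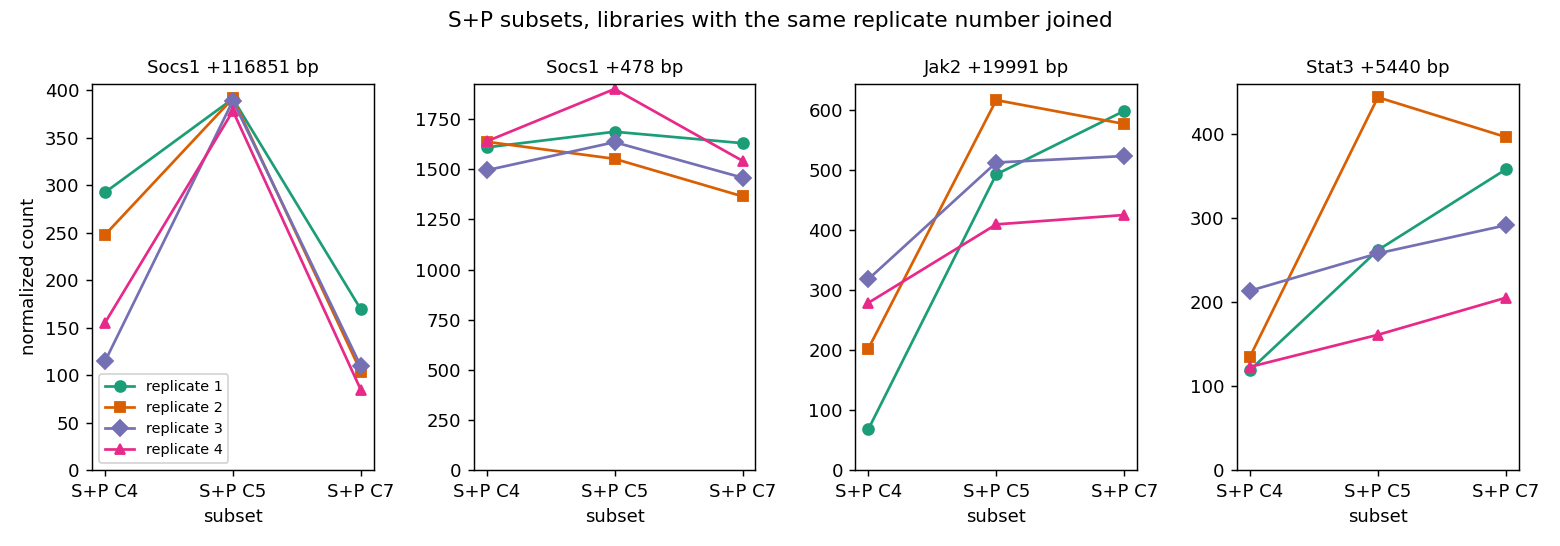
Normalized counts of 4 peaks in S+P C4, C5 and C7, with libraries of the same number joined. The distal Socs1 peak is highest in C5 for all 4 numbers (378 to 392) and the Socs1 promoter peak is nearly level, while Jak2 and Stat3 are at similar levels in C5 and C7.

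The other Socs1 peaks were highly accessible in all groups. The promoter peak (+478, chr16:10602117-10604677) had means of 1729 ± 76.8 (SD, n = 3) in Naive and 1693 ± 148 (n = 4) in S+P C5. The peak over the 3′ end of the gene (+3343) was lower in S+P C5 than in Sensitized (−0.49 ± 0.16, adjusted p 0.0153) and lower in S+P C7 (−0.78 ± 0.16, adjusted p 1.22e-05), and the peak at +13655 was lower in S+P C7 than in Sensitized (−0.71 ± 0.13, adjusted p 4.48e-07). Neither passed the fold threshold, although +3343 did so in S+P C7 vs Sensitized without Sensitized libraries 3 and 4 (−1.04 ± 0.17, adjusted p 4.2e-08).

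Socs3, an inhibitor of IL-6 family signals, had 2 peaks downstream of the gene. At +4364 (chr11:117856166-117856903) counts were 559, 591 and 309 in Naive and 240, 262 and 382 in N+P C5. Sensitized libraries had 812, 750.1, 431 and 423, S+P C5 libraries 578, 629, 784 and 415, and S+P C7 libraries 368, 458, 414 and 191. S+P C5 was above N+P C5 in all libraries and overlapped with Sensitized. Without a graft the differences from Naive were −0.84 ± 0.34 in N+P C1 and −0.72 ± 0.34 in N+P C5, with no adjusted p, and without Naive library 3 both were called (−1.08, adjusted p 0.0229, and −0.97, adjusted p 0.0424). Naive library 3 had the lowest Naive count here (309), so leaving it out enlarges both differences. The peak was 2.04-fold higher in S+P C5 than in N+P C5 (1.03 ± 0.32, adjusted p 0.00335), a call lost without N+P C5 library 1 (0.8994) or S+P C5 library 3 (0.88), and differed from Sensitized by −0.01 ± 0.29. S+P C7 was lower than Sensitized by the adjusted p (−0.76 ± 0.29, adjusted p 0.0243), and without Sensitized libraries 3 and 4 this was a call (−1.13 ± 0.32, adjusted p 0.00514), as was S+P C4 vs Sensitized (−1.06 ± 0.33, adjusted p 0.0321). At +6500 (chr11:117854092-117854704) S+P C5 was higher than N+P C5 by the adjusted p (0.67 ± 0.23, adjusted p 0.00988), with 239 to 364 counts against 148 to 238, and the difference of the C5 effects was 0.74 ± 0.33 (adjusted p 0.0848). Neither passed the fold threshold in the fit over all libraries. The difference did so without Naive library 3 (0.93), N+P C5 library 1 (0.98) or Sensitized library 1 (0.95), and was not past the adjusted p without Sensitized libraries 3 and 4 (0.496 ± 0.34, adjusted p 0.373). The contrast of the C5 subsets did so without N+P C5 library 1 (0.91).

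Cish, a Stat5-induced inhibitor of T cell receptor and IL-2 signals, had a promoter peak (+897, chr9:107172834-107175410) with 445, 540 and 404 counts in Naive and 462, 433 and 326 in N+P C5. Sensitized libraries had 988, 635, 443 and 452, S+P C5 libraries 516, 747, 740 and 713, and S+P C7 libraries 623, 861, 936 and 1055. S+P C5 did not overlap with N+P C5, and Sensitized overlapped with every other group. S+P C5 was higher than N+P C5 (0.74 ± 0.25, adjusted p 0.00778), and S+P C7 was higher than Sensitized (0.47 ± 0.23, adjusted p 0.0816), the latter not without Sensitized libraries 3 and 4 (0.10 ± 0.24, adjusted p 0.815). A downstream peak (+17171) was also higher in S+P C5 than in N+P C5 (0.88 ± 0.24, adjusted p 0.00108). Neither passed the fold threshold in the fit over all libraries, and the latter did in 4 alternatives (0.9016 to 0.9965).

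Other genes of the pathway had called peaks in both directions. Of 21 other Stat, Socs and regulator genes, 16 had 33 peaks, of which 4 opened and 1 closed in Sensitized vs Naive, 2 and 2 did so in S+P C5 vs Sensitized, and 4 and 2 between the C5 subsets, S+P vs N+P. Over all peaks the opening and closing shares were 7.22% and 1.4%, 3.08% and 3.67%, and 10.3% and 6.97% in these comparisons, and no list was tested against them. The opening peaks of S+P C5 vs Sensitized were introns of Ptpn11, which encodes the phosphatase Shp2 (+11787, log2 2.02 ± 0.34, adjusted p 1.9e-07), and of Socs5 (+11971, 0.92 ± 0.29, adjusted p 0.0111). The closing peaks lay 274751 and 276933 bp from the start of Ptprc, which encodes CD45 (−1.57 ± 0.35, adjusted p 0.000235, and −1.25 ± 0.30, adjusted p 0.000652).

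Of 19 cytokine receptor genes, 18 had 60 peaks, of which 5 opened and 2 closed in Sensitized vs Naive, 3 and 3 in S+P C5 vs Sensitized, 5 and 9 in S+P C7 vs Sensitized (all peaks 3.84% and 8.03%), and 11 and 6 between the C5 subsets. The 2 opening peaks with the smallest adjusted p in S+P C5 vs Sensitized lay at −37991 and −23545 from Ifnar1, a chain of the type I interferon receptor (1.82 ± 0.21, adjusted p 2.78e-15, and 0.92 ± 0.14, adjusted p 1.21e-08). Of the 3 closing peaks, the 2 with the smallest adjusted p lay upstream of Il6st, the shared chain of IL-6 family receptors (−1.02 ± 0.16, adjusted p 2.59e-08), and of Ifngr2 (−1.40 ± 0.33, adjusted p 0.000457). The Ifnar1 peak at −37991 had means of 109 ± 11.6 in Naive, 122 ± 26.4 in Sensitized, 433 ± 76.8 in the C5 subset of S+P and 383 ± 116 in its C7 subset.

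Of 15 cytokine-induced genes, 14 had 48 peaks. In S+P C5 vs Sensitized DESeq2 called 0 of them and edgeR 0, with 15 at an unadjusted p under 0.05 and 14 past the adjusted p, which 32.9% of all peaks passed. In Sensitized vs Naive 3 opened and 1 closed, in S+P C7 vs Sensitized 0 opened and 4 closed, and between the C5 subsets 5 opened and 1 closed. The median log2 fold change of each of the 3 lists lay between −0.11 and 0.09 in these 4 comparisons, where that of all peaks lay between −0.01 and 0.00.

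What the member peaks share in sequence was described by string matches in the 300 bp windows. The STAT string was in 5 of 33 windows (15.2%, Wilson 95% interval 6.65% to 30.9%) and in 7.73% of all windows, and, outside promoters, in 14.8% of 27 member windows and 10.2% of 5857 windows. AP-1 strings were in 15.2% and 9.2%, NFAT strings in 27.3% and 18.1%, and RUNX strings in 30.3% and 24.3% of member and all windows. TCF/LEF (CTTTGA) was in 18.2% and 16.3%, T-box (AGGTGT) in 24.2% and 14.6%, and ETS (CCGGAA) in 12.1% and 20.4%. Outside promoters some of these orders turned: RUNX strings were in 33.3% of member windows and 40.6% of all windows, and TCF/LEF strings in 22.2% and 25.5%, while AP-1 (18.5% and 15.9%), NFAT (29.6% and 25.5%) and T-box (25.9% and 20.9%) kept theirs and ETS was in 0% and 9.12%. The members held fewer promoters than all peaks, and their median GC content was 47% against 57.3%.

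In the 300 bp windows, STAT strings fell in peaks assigned to the inhibitors and to Tyk2. The Socs1 peak at +13655 held 2 (chr16:10590203-10590211 and chr16:10590228-10590236), and the distal Socs1 peak, the Socs3 peak at +4364, the Cish promoter peak and the peak upstream of Tyk2 held 1 each. None was in a 300 bp window of Jak1, Jak2, Stat3, Stat4 or Stat5b. Over whole peaks the string was in 16 of 33 members (48.5%) and 24.6% of all peaks, and those members included 3 peaks of Jak1 and 4 of Stat4 (+21547, +32585, +65782 and +68877). In the Cish window the string overlaps a match to the ETS string. A match describes the letters and shows no binding.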

How the data were processed

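ATAC-seq was run by the authors on sorted CD8+ T cells (25 libraries, 7 groups). Per the submitters' processing notes the tools were Cutadapt 3.4, Bowtie2 2.2.9 on GRCm39, Picard 2.21.8, Genrich 0.6.1, bedtools 2.27.1 and deepTools. The authors kept peaks that recurred within a group and deposited 1 list per group with a ChIP-R score, of which only the positions were used here. They merged the lists and deposited raw counts per peak and library, with no normalization. Because the lists pool libraries they carry no replicate error.

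Counts were fitted with DESeq2 1.42.0 under R 4.3.3, as DESeq2 is named in the methods, in 1 model over all groups and 13527 peaks, with median-of-ratios size factors, Wald tests, independent filtering and Benjamini-Hochberg adjustment over all peaks tested. The thresholds (0.1 for the adjusted p and 0.9 for the log2 fold change in either direction) follow the study's methods, and fold changes are unshrunken. Normalized counts are deposited counts divided by size factors. The fit was tested on simulated counts with the same dispersion for every peak and no aberrant or paired libraries. That test checks the code and not the calls made here. Values of single libraries are given in the order of their replicate numbers, errors of fold changes are SE, and intervals and floors cover counting error only.

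The members, lists and tests were chosen with earlier results of these data known. For each gene the most accessible promoter peak was named, and up to 3 other peaks called in any comparison, by adjusted p, or else the one with the smallest p. The Stat4 peak at +68877 and the other peaks with values were added so that all members are accounted for. In the other pathway lists, the 2 opening and 2 closing peaks with the smallest adjusted p in S+P C5 vs Sensitized were named. Replicate numbers paired the S+P subsets C4 with C5 and C5 with C7, and also the N+P subsets, which were not compared: the column names of same-numbered libraries share a prefix, and every such pair's deviations correlated above 0.1. Same-numbered libraries of separate mice could also exceed this, as S+P C5 and Sensitized library 2 did (0.363, against 0.103 in the lowest accepted pair). Others were negative, as S+P C4 and Sensitized library 3 were (−0.759). The correlation alone therefore does not identify pairs. S+P C5 vs Sensitized and the other comparisons between separate mice were not paired, and their numbers are names only. No 2 libraries of a group agreed within sampling noise (lowest chi-square per degree of freedom 2.81). Motifs were read from GRCm39. Alternatives were edgeR 4.0.16, total counts, loess offsets, a low-count filter (50 counts in 3 libraries), no independent filter, an adjusted p under 0.05, the compared groups alone with and without a replicate block, each library left out, Sensitized libraries 3 and 4 left out, and members by nearest start alone.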

Additional observations from a re-analysis of the deposited data

Results flagged for a closer look

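In groups of 4 libraries, a library stood apart from the other 3 by Dixon's criterion in 4 of 68 sets of values over the 17 named peaks, where chance gives about 1 in 20. S+P C4 library 3 had 213.6 normalized counts at the Stat3 intron peak (+5440), against 119 to 135 in the others. S+P C5 library 4 had 115.7 at the Stat5b peak at +2348, against 233 to 249. S+P C4 library 4 had 204.1 at the Socs3 peak at +4364, against 417 to 444. S+P C5 library 1 had 516.2 at the Cish promoter peak, against 713 to 747.

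The contrast of S+P C5 with Sensitized differed from that of N+P C5 with Naive, by the test of the difference itself and beyond the fold threshold, at 3 named peaks. Because Naive and Sensitized carry no PD1 or CD73 gate in the labels, pregnancy and the sorted subset cannot be told apart in it. The differences in log2 fold change were 2.115 ± 0.59 (DESeq2 adjusted p 0.00901) at the Stat3 intron peak, 1.176 ± 0.38 (adjusted p 0.0212) at the distal Socs1 peak and 0.9507 ± 0.43 (adjusted p 0.0909) at the Stat5b peak at +2348, the last of which was lost in 15 of 23 alternatives. The Stat3 promoter peak passed the adjusted p without the fold threshold (0.64 ± 0.20, adjusted p 0.0174, and 0.46 ± 0.20, adjusted p 0.168, without Sensitized libraries 3 and 4).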

How the results depend on the processing

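Of 26 calls at 8 named peaks, 15 were kept in every alternative, 11 were lost in at least 1 and 0 were reversed. The counts of members called in Sensitized vs Naive (7), S+P C5 vs N+P C5 (7) and S+P C7 vs S+P C5 (1) stayed within 1.5 times of these values in all alternatives, with 6 to 8, 6 to 10 and 1 when single libraries were left out. S+P C4 vs Sensitized (1) gave 0 at an adjusted p under 0.05, with edgeR, and with the compared groups alone, with or without the replicate block, and 0 to 1 with single libraries left out (0 without Sensitized library 2, 3 or 4 or S+P C4 library 2, 3 or 4). Without Sensitized libraries 3 and 4 its 1 call was another peak, closing (Socs3 +4364). S+P C5 vs Sensitized (4) gave 1 with loess offsets and 2 without Sensitized libraries 3 and 4, and 3 to 6 without single libraries. S+P C7 vs Sensitized (2) gave 2 to 7 without single libraries, the highest without Sensitized library 1, and 4 without Sensitized library 2 or S+P C7 library 4, and its 2 opening calls became 1 opening and 1 closing with loess offsets and 1 opening (Stat3 +5440) and 2 closing (Socs3 +4364 and Socs1 +3343) without Sensitized libraries 3 and 4. S+P C5 vs S+P C4 (3) gave 1 with loess offsets, 6 with the compared groups alone, 5 with the replicate block, and 2 to 5 without single libraries, with 5 without S+P C4 library 3. The difference of the C5 effects (3) gave 2 to 6, with 6 without Naive library 3 and 5 without Sensitized library 1. N+P C5 vs Naive (0) gave 1 with the independent filter off, 2 with total counts, 2 with the compared groups alone and 2 with the replicate block, in each case opening peaks of Jak2 or Stat4, and 0 to 5 without single libraries. N+P C1 vs Naive (0) gave 0 to 3. The highest values of both were without Naive library 3, and 3 of the calls in each were then closing peaks of Stat5b (+2348 and +4760) and Socs3 (+4364). Apart from those named, causes of these shifts were not tested, and the replicate block changed no other count by over 1.5 times. The low Stat4 and Jak2 counts of groups without a graft leave their fold changes with wider errors.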

Other observations

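Peaks just outside the rule were also read, chosen after their values were seen. The nearest intergenic peak beyond the 3′ end of Jak2 (chr19:29319864-29320200, 29527 bp past it, nearest start Rln1) had a Naive mean of 8.64 ± 5.09 (SD), an N+P C5 mean of 10.97 ± 4.599 and a Sensitized mean of 104 ± 104. Means of the S+P subsets were 269 ± 157 (C4), 164 ± 49.8 (C5) and 321 ± 151 (C7). It was called in Sensitized vs Naive (log2 3.54 ± 0.68, DESeq2 adjusted p 4.25e-06), between the C5 subsets (3.89 ± 0.68, adjusted p 1.15e-07), and between S+P C7 and Sensitized (1.62 ± 0.58, adjusted p 0.0143). The peak nearest to Jak3 lay 2181 bp past its end, in an exon, with Insl3 as the nearest start, and its means lay between 288 and 368 in all 7 groups. The Stat5a promoter peak, 9636 bp upstream of Stat5b, was higher in S+P C5 than in N+P C5 by 0.44 ± 0.12 (adjusted p 0.00139).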
